A study of Acomys cahirinus and Mus musculus with 6 samples.

Results

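The cells described here are those that the deposited cell annotation names ORS, outer root sheath cells of the hair follicle. They were taken by that name alone, and 1041 of the 39577 annotated cells carried it. All of them lay in a single deposited cluster, number 12, and no cell of that cluster had another name. Single-cell RNA sequencing had been run on healing ear punches, full-thickness holes in the skin of the ear pinna, of spiny mice (Acomys cahirinus), and of laboratory mice (Mus musculus). The 4 spiny mouse libraries came from wild-type animals injected from day 12 to day 15 with an ERK inhibitor, an ErbB2 inhibitor, an inhibitor of FGFR1, FGFR2 and FGFR3 (called the FGFR inhibitor below), or DMSO. The 2 mouse libraries came from the CD1 strain, given a local implant at day 10 of microbeads that carried FGF2 and Nrg1 or PBS. Each group was 1 library, the sources used here state neither the number of animals behind a library nor the day of collection, and all values compare libraries rather than conditions.

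The outer root sheath is the outer epithelial layer of the hair follicle and is continuous with the epidermis at the skin surface. Its upper stretch, the infundibulum and isthmus, opens the hair canal, joins the duct of the sebaceous gland and forms a barrier against microbes, while its lower stretch surrounds the inner root sheath and the growing hair. In laboratory mice Krt79, Gata6, Plet1 and Defb6 are known from the upper stretch and the sebaceous duct, and after wounding cells of the upper follicle can move into the epidermis. ErbB receptors bind ligands of the EGF and neuregulin families, FGFR receptors bind fibroblast growth factors, and ERK is a kinase that both can activate.

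The ERK inhibitor library stood apart by size, with 631 cells and 9 ORS cells, so it is given as counts, levels and a share, with no ratio to DMSO. The other libraries held 217 ORS cells with the ErbB2 inhibitor, 157 with the FGFR inhibitor, 470 with DMSO, 96 with FGF2/Nrg1 beads and 92 with PBS beads. Their summed unique molecular identifiers (UMIs, 1 for each captured RNA molecule) ranged from 603012 to 1554329. ORS cells differed in depth between libraries, with a median of 4402 UMIs per cell with the ErbB2 inhibitor and 5605 with the FGFR inhibitor against 2701.5 with DMSO, and of 6484 with FGF2/Nrg1 beads against 10561 with PBS beads. Barcodes that occurred in more than 1 library were carried by 368 cells, 10 of them ORS. Of the genes counted in mouse ORS cells, 3082 had 0 UMIs in all spiny mouse ORS cells, so no ratio between the species was taken.

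The name was checked against 7 markers, Krt79, Krt17, Cst6, Gata6, Klk10, Plet1 and Defb6, and levels below are UMIs of a gene per 1000000 UMIs of the summed ORS cells (CPM). Krt79, a keratin of cells that line the upper hair canal in mice, was measured at 7610 CPM with the ERK inhibitor, 8491 with the ErbB2 inhibitor, 9777 with the FGFR inhibitor, 7382 with DMSO, 9186 with FGF2/Nrg1 beads and 7904 with PBS beads. It was thus high in all 6 libraries, and the next type was the sebaceous gland in DMSO, at 2668 CPM, and in PBS beads, at 1346 CPM. Cst6, cystatin M/E, an inhibitor of cysteine proteases in cornifying epithelium, was measured at 20395 CPM with the ERK inhibitor, 9834 with the ErbB2 inhibitor, 13310.1 with the FGFR inhibitor, 8595 with DMSO, 22535 with FGF2/Nrg1 beads and 18348 with PBS beads. The ERK inhibitor level of Cst6 came mostly from a single cell. Krt17, a keratin of the follicle and of stressed epidermis, reached 3909 CPM in DMSO and 4087 in PBS beads, close to the 3993 and 3322 CPM of the inner root sheath in the same libraries.

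Gata6, a transcription factor known in mice from the sebaceous duct lineage, was low, with 83.7 CPM with the ErbB2 inhibitor, 70.8 with the FGFR inhibitor, 48.9 with DMSO, 171 with FGF2/Nrg1 beads and 157 with PBS beads. The highest other type of at least 30 cells stood 7.28-fold below it in DMSO and 8.58-fold below it in PBS beads. Cluster 31, annotated basal epidermis, was as high, with 96.9 CPM of Gata6 with the ErbB2 inhibitor, 70.5 with the FGFR inhibitor and 56.0 with DMSO. Klk10, a kallikrein-related peptidase, was at 151 CPM in DMSO and 33.8 CPM in PBS beads, and in PBS beads the inner root sheath was above it at 246 CPM. Defb6, a beta-defensin, and Plet1, a surface protein of the upper isthmus in mice, split by species. Defb6 was measured at 9660 CPM with FGF2/Nrg1 beads and 14083 CPM with PBS beads, while all spiny mouse ORS cells together gave 1 UMI. Plet1 was measured at 209 and 272 CPM in those mouse libraries and at 0 to 8.95 CPM in the spiny mouse ones. A spiny mouse value is what was counted under a mouse gene name, so a level near 0 there says nothing of the animal's own gene.

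**Figure D1:**
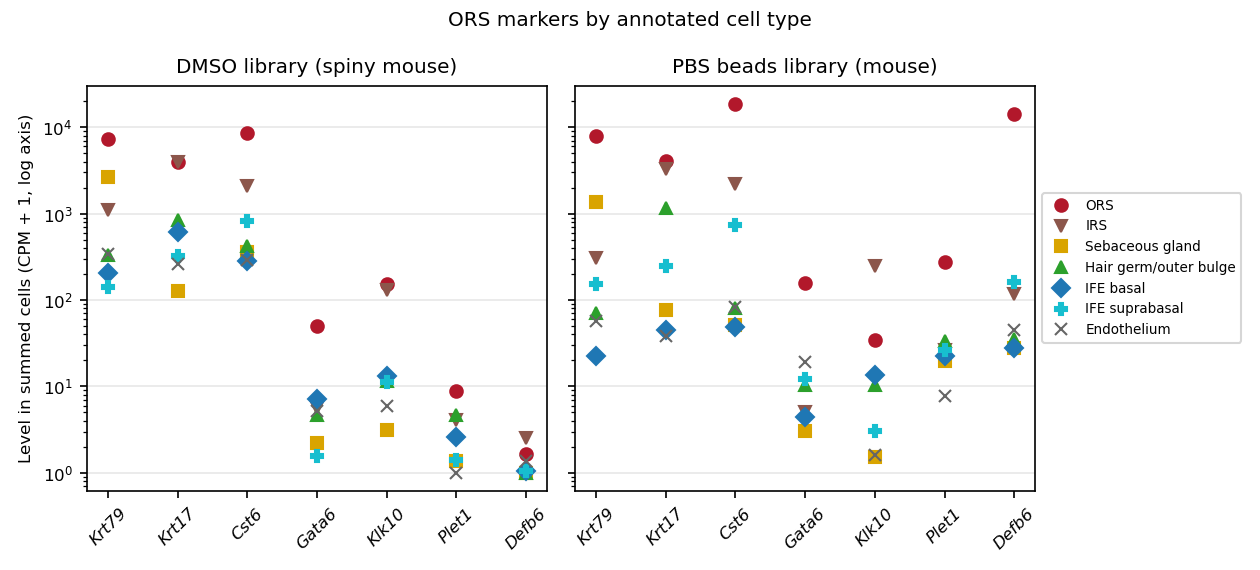
Level of the 7 ORS markers (CPM plus 1, log axis) in the summed cells of ORS and 6 other annotated types, in the DMSO library of the spiny mouse (left) and the PBS bead library of the mouse (right). ORS points stand highest for Krt79, Cst6 and Gata6 in both libraries, while Krt17 is shared with the inner root sheath (IRS) and Defb6 separates ORS cells only in the mouse, at 14083 CPM.

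In GRCm38, the mouse build, with GENCODE vM21, Krt79 is annotated as protein-coding on chromosome 15 from 101929332 to 101940324, Krt17 on chromosome 11 from 100256217 to 100261029, and Cst6 on chromosome 19 from 5344705 to 5349574. Defb6 lies on chromosome 8 from 19225478 to 19228209, Klk10 on chromosome 7 from 43781035 to 43785410, and Plet1 on chromosome 9 from 50494525 to 50505482. These are positions in the mouse and not in the spiny mouse.

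Detection per cell was read after each cell was thinned to 1000 UMIs, beside endothelial cells as a measure of RNA from outside the cell. In DMSO, Krt79 was detected in 83.9% of thinned ORS cells and 23.0% of endothelial cells, and before thinning in 90.4% and 39.4%, at median depths of 2701.5 and 1769 UMIs. Cst6 was detected in 56.6% of thinned ORS cells and 30.1% of endothelial cells in DMSO, and Gata6 in 5.42% and 0.118%. In PBS beads, Krt79 was detected in 92.3% and 7.74%, and Defb6 in 90.1% and 3.72%, at unthinned median depths of 10561 and 3853 UMIs. Each of these markers was thus detected more often in ORS cells than in endothelial cells of the same library; the share in endothelial cells was larger in DMSO for Krt79 and Cst6 and larger in PBS beads, at 1.55%, for Gata6.

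Genes that led ORS cells over every other type of at least 30 cells are given as a description, since the cluster was made from them. In DMSO the list after Gata6 held Wfdc2, Stra6, Cst6, Ccl27a, Egr2, Klk7, Rem2, Aqp3 and Krt79, from 6.02-fold for Wfdc2 to 2.77-fold for Krt79 over the next type. Stra6 takes up retinol from its carrier protein, Ccl27a is a chemokine that attracts T cells to skin, Klk7 is a peptidase of corneocyte shedding, and Aqp3 is a water and glycerol channel. Wfdc2 rested on few cells, with 167 of its 173 UMIs in 5 cells. In PBS beads Defb6 led at 34.7-fold, followed by Gata6, Cst6 at 8.42-fold, Plet1, Skint3, Krt79, Gm15635, Ttc39c, Atp6v1c2 and Defb1. Gata6, Cst6 and Krt79 were among the leading 10 in all 5 libraries with at least 30 ORS cells. Egr2, a zinc-finger factor of the immediate-early class, was among them in all but PBS beads. With the ErbB2 inhibitor and the FGFR inhibitor the inner root sheath had fewer than 30 cells and was not compared; there it held 6522 and 6158 CPM of Krt79.

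Genes of other follicle compartments were measured in the same cells. Krt75, a keratin of the companion layer, had 13 UMIs in DMSO, 1 each in the mouse libraries and 0 in the inhibitor libraries, and Krt6b had at most 2. Of the other genes listed for the companion layer and lower sheath, Krt6a had 595 CPM with FGF2/Nrg1 beads and 467 with PBS beads, and 14.2 in DMSO. Krt16 had 259.9 CPM in DMSO, at the level of free RNA, and the factor Barx2 had 222 CPM in DMSO and 217.6 in PBS beads. The list of 5 genes summed to 826 CPM with FGF2/Nrg1 beads and 829.8 with PBS beads, against 20.5 and 20.8 CPM in non-epithelial types. The bulge and hair germ genes Cd34 and Lgr5 had at most 2 UMIs in any library, though Cd34 was near 0 in spiny mouse hair germ cells as well. Lhx2 had 43.1 CPM in DMSO and 24.8 in PBS beads, against 315 and 399 CPM in cells annotated hair germ or outer bulge. Sox9, a factor of follicle epithelium, was measured at 246 CPM in DMSO and 370 CPM in PBS beads, near the 384 and 419 CPM of hair germ cells. Krt15 was measured at 3046 and 10117 CPM in DMSO and PBS beads, below the 4088 and 17255 CPM there. Lrig1, which restrains ErbB receptors and marks the junctional zone in mice, was above hair germ cells in both, with 38.6 CPM in DMSO and 110.5 in PBS beads. Of the upper follicle genes, Krt79, Cst6 and Krt17 were thus high in DMSO and PBS beads, with Krt17 shared with the inner root sheath. Gata6 and Lrig1 were low, and Defb6 was high only in the mouse. Krt75 and Lgr5 were at or near 0, and Barx2, Sox9 and Krt15 were shared with hair germ cells. The sebaceous markers Scd1 and Pparg stood at 0.643 and 7.72 CPM in DMSO and at 76.7 and 1.13 CPM in PBS beads, where the gland itself had 7008 CPM of Scd1.

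RNA of other epithelial types was measured in the same cells. Inner root sheath markers summed to 71.6 CPM with the ERK inhibitor, 44.3 with the ErbB2 inhibitor, 67.6 with the FGFR inhibitor, 2859 with DMSO, 7068 with FGF2/Nrg1 beads and 567 with PBS beads. They outnumbered the 7 ORS markers in 22 DMSO cells, 9 FGF2/Nrg1 cells, 3 PBS cells and 0 inhibitor cells. Spinous markers did so in 148 of 217 ErbB2 inhibitor cells, 56 of 157 FGFR inhibitor cells and 368 of 470 DMSO cells, and in 13 FGF2/Nrg1 and 14 PBS cells. Basal epidermal markers did so in 33 ErbB2 inhibitor, 29 FGFR inhibitor and 183 DMSO cells, and in 34 FGF2/Nrg1 and 23 PBS cells. Spinous markers of the epidermis, led by Krt10, made up 3.73% of ORS UMIs with the ErbB2 inhibitor, 2.28% with the FGFR inhibitor and 3.37% with DMSO, beside 2.72%, 0.861% and 2.38% of endothelial UMIs. In the mouse they made up 0.742% of ORS UMIs with FGF2/Nrg1 beads and 0.674% with PBS beads. Below, a gene is said to be at the level of free RNA when its ORS level was under 3 times the median of the non-epithelial types and more than 3 times below the highest other type. For a ratio, a gene was judged in the library where its level was higher. Krt5, Krt14 and Krt10 of the spiny mouse libraries injected with the ErbB2 inhibitor, the FGFR inhibitor or DMSO were at the level of free RNA. T cell markers summed to at most 10.9 CPM and Merkel cell markers to at most 1.66 CPM in any library. Other lists stood higher. Fibroblast markers reached 188 CPM in DMSO, beside 406 CPM in non-epithelial types, and neutrophil markers 406 CPM in PBS beads, beside 263 CPM. Dendritic cell markers, a list that holds Epcam, reached 1519 CPM with FGF2/Nrg1 beads, beside 201 CPM.

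ORS cells differed among themselves in how much of their RNA the markers held. The 7 markers held a median of 1.28% of a cell's UMIs with the ErbB2 inhibitor, 1.78% with the FGFR inhibitor, 1.07% with DMSO, 1.97% with FGF2/Nrg1 beads and 2.50% with PBS beads. In DMSO the middle of the cells lay between 0.449% and 2.35%, and the highest cell reached 36.8%. Cst6 carried much of this spread: in DMSO it had UMIs in 365 of 470 cells, and 3457 of its 13360 UMIs came from 5 cells. Cells were ranked by this share and the highest 25% (marker-high) were set against the lowest 25% (marker-low) in each of the 5 larger libraries, 23 to 117 cells each, with CPM scaled to UMIs of all other genes. The markers themselves were used for the ranking and are not a result; Cst6 was at 30454 CPM in marker-high and 345 CPM in marker-low DMSO cells. Median depth was 2751 UMIs in marker-high and 2829 in marker-low DMSO cells, and 10934 and 9830 UMIs with PBS beads.

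Of 1395 other genes with at least 20 UMIs over both ends in each library, 30 (2.15%) were at least 1.5-fold higher in marker-high cells in all 5 libraries and 9 (0.645%) at least 1.5-fold lower. These counts rest on the fold alone and asked nothing of the counting interval. Higher genes were led by Klk7, with 5258 CPM in marker-high and 763 CPM in marker-low DMSO cells, and with 847 and 47.0 CPM in PBS beads. Crabp2, which carries retinoic acid into the nucleus, had 412 and 58.7 CPM in DMSO and 494 and 28.2 CPM in PBS beads. Ly6g6c, a small surface protein of the Ly6 family, had 2918 and 298 CPM in DMSO and 4351 and 94.0 CPM in PBS beads. These 3 were at least 2.74 higher on the log2 scale in every library.

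Others of the 30 included Spink5, an inhibitor of kallikreins, Gsdma, a gasdermin of follicle and epidermis, Defb1, the proteases Anpep and Ctsd, the small heat shock protein Hspb1, the cysteine protease inhibitor Cstb, Sbsn and the adhesion protein Epcam. The 9 lower genes included Col17a1 and Dst, both of the hemidesmosomes that hold basal cells to the basement membrane, Krt5, the keratin of basal cells, and Ccnd1, cyclin D1. Col17a1 had 244 CPM in marker-high and 462 CPM in marker-low DMSO cells, and 45.8 and 367 CPM in those of PBS beads. Ifitm3, Mt1, Hspe1, Fam162a and Zfp36l1 made up the rest. Krt5 and Col17a1 were at the level of free RNA over all DMSO ORS cells. In DMSO and the bead libraries, inner root sheath genes also sat in marker-low cells, with Krt71 at 95.2 CPM in marker-high and 1985 CPM in marker-low DMSO cells. With the ErbB2 and FGFR inhibitors, Krt71, Krt25 and Tchh were at 24.3 CPM or less at both ends. Much inner root sheath RNA lowers a cell's marker share, so these genes are not independent of the ranking.

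**Figure D2:**
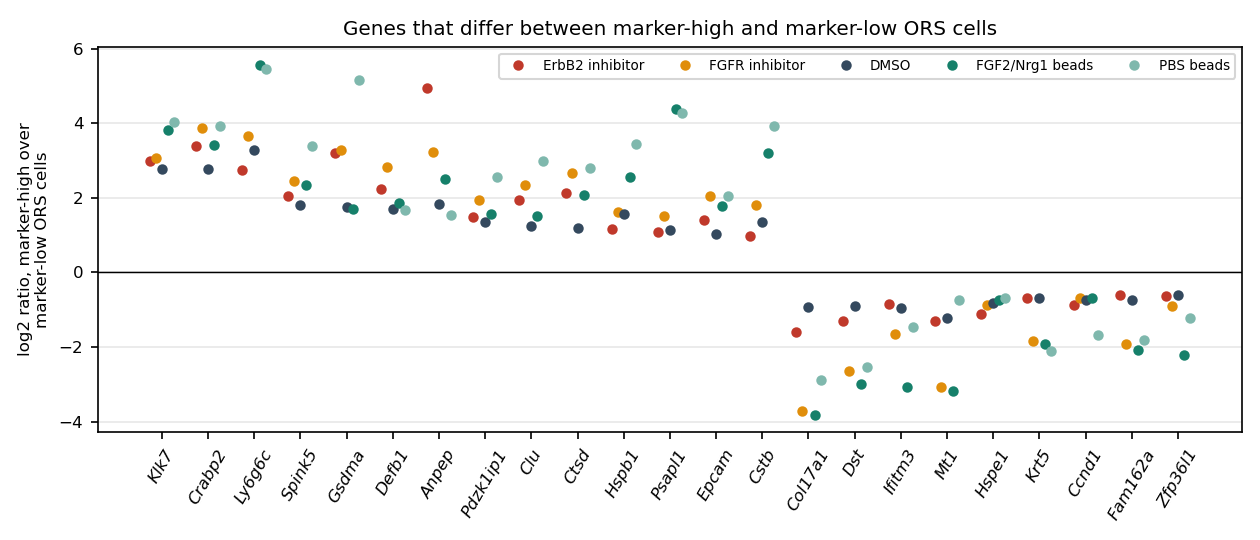
Log2 ratio of CPM, marker-high over marker-low ORS cells (highest and lowest 25% by the share of UMIs held by the 7 markers), 1 point per library, for 14 genes higher and the 9 genes lower in all 5 libraries. Klk7, Crabp2 and Ly6g6c lie at or above 2.74 in every library, and Col17a1 and Dst at or below -0.91.

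ORS cells were 2.04% of all cells with the ErbB2 inhibitor (217 of 10632, exact 95% interval 1.78 to 2.33), 3.28% with the FGFR inhibitor (157 of 4782, 2.80 to 3.83) and 3.06% with DMSO (470 of 15363, 2.79 to 3.34). Their share with the ErbB2 inhibitor lay below that with DMSO with intervals apart, also among keratinocytes alone, at 2.64% (2.30 to 3.01) against 4.14% (3.78 to 4.53). With the FGFR inhibitor the interval overlapped that of DMSO in both measures. In the mouse, ORS cells were 1.88% of all cells with FGF2/Nrg1 beads (1.53 to 2.29) and 3.00% with PBS beads (2.43 to 3.67). Among keratinocytes these became 5.64% (4.59 to 6.84) with FGF2/Nrg1 beads and 6.06% (4.92 to 7.39) with PBS beads, with intervals that overlapped. With the ERK inhibitor 9 of 631 cells were ORS, 1.43% (0.654 to 2.69). The intervals cover counting error only, and dissociation and capture can also set such shares.

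**Figure D3:**
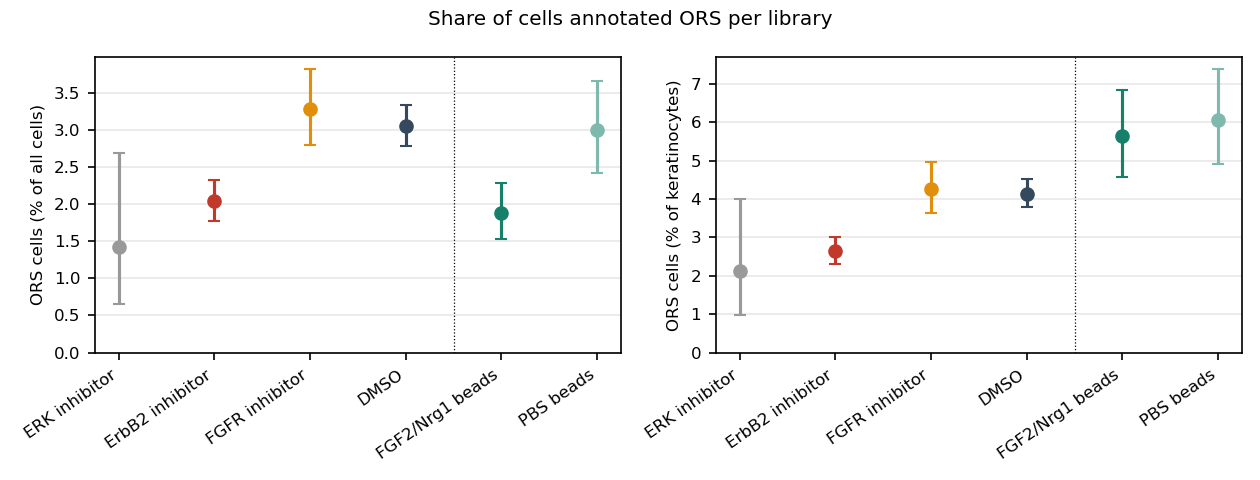
Share of cells annotated ORS in each library, of all cells (left) and of keratinocytes (right), with exact 95% counting intervals; the dotted line parts spiny mouse from mouse libraries. The ErbB2 inhibitor library lies below DMSO in both panels, while the bead libraries differ on the left (1.88% and 3.00%) and overlap on the right.

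For each treatment, UMIs were summed over ORS cells and the log2 ratio of CPM, treated over control, was taken for genes with at least 30 UMIs over both libraries. A gene was called when it differed by at least 1.5-fold and its 95% counting interval, given in brackets below, lay on one side of no difference. With 1 library a group there is no replicate check and no test, so a call says only that 2 libraries differ beyond counting error. Lists of genes by function are given by their counts of calls and their median beside that of all genes.

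With the ErbB2 inhibitor, ORS cells had more RNA of Il1r2, a decoy receptor that takes up interleukin-1, of the retinol transporter Stra6, of Gata6 and of claudins, and less of the junction protein Jup and of Ccnd1. Against DMSO, 329 of 5899 genes were called higher (5.58%) and 271 lower (4.59%), with a median log2 ratio of 0.03 over all genes. Of all genes tested, 293 (4.97%) were called higher and 149 (2.53%) lower above the level of free RNA, so the lower calls lost more. Higher calls were judged in the inhibitor library and lower ones in DMSO, so these losses are not on the same footing. The deeper ErbB2 inhibitor cells are part of this comparison, and the part of depth was not tested. After cells were thinned to 1000 UMIs, 2824 genes were left to compare, and 132 were called higher and 114 lower.

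Il1r2 was measured at 923 CPM with the ErbB2 inhibitor and 306 CPM with DMSO, in 166 of 217 and 209 of 470 cells, a log2 ratio of 1.59 (1.43 to 1.75). Its ratio was also above 0 in the sebaceous gland at 1.09, hair germ at 1.14, basal epidermis at 2.31 and suprabasal epidermis at 1.75. Cyp4b1, a cytochrome P450, was measured at 85.6 CPM with the ErbB2 inhibitor and 21.9 CPM with DMSO, a log2 ratio of 1.93 (1.38 to 2.58). Fkbp5, a co-chaperone of steroid receptors, was called at 1.53 (1.04 to 2.08), and Txnip, a binding partner of thioredoxin, at 1.37 (1.05 to 1.71), with ratios in the 4 other types of 1.15 to 3.16 for Fkbp5 and 1.36 to 2.49 for Txnip. Arntl, a transcription factor of the circadian clock, had 25 and 7 UMIs, a log2 ratio of 2.23 (1.17 to 3.87), beside 0.08 to 0.97 in the other types. Efna1, a ligand of Eph receptors, and Degs1, a desaturase of ceramide synthesis, were called at 1.09 and 1.23. Pdk4 had 32 UMIs with the inhibitor and 0 with DMSO, at least 16.0-fold higher against a floor of 3 UMIs, but at the level of free RNA.

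Of the 11 genes of the upper follicle and duct, 7 were measured with a median of 0.20, 1 higher and 1 lower. The higher one was Gata6, with 83.7 CPM with the ErbB2 inhibitor and 48.9 with DMSO, a log2 ratio of 0.77 (0.32 to 1.24), and with 0.37 to 1.25 in the other types. The lower one was Lrig1, with 23.1 and 38.6 CPM, a log2 ratio of -0.72 (-1.49 to -0.04), which became -0.46 as a mean over cells. Krt79, Cst6, Krt17 and Klk10 were at 0.16 to 0.46 and were not called. Retinoid and xenobiotic genes held 3 higher and 1 lower of 14 measured with a median of -0.0041, among them Stra6, with 246 and 122 CPM, a log2 ratio of 1.01 (0.73 to 1.29), and Rarg, a retinoic acid receptor, at 0.93 (0.51 to 1.37). Stra6 stood at -0.30 to 0.78 and Rarg at 0.05 to 0.62 in the other types. The difference between ORS and other types was not tested.

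Of tight and gap junction genes, 9 were measured with a median of 0.30, 2 higher and 2 lower. Cldn4 had 77.9 CPM with the ErbB2 inhibitor and 37.3 with DMSO, a log2 ratio of 1.05 (0.56 to 1.57), and Cldn1, a claudin needed for the water barrier of mouse skin, had 291 and 172 CPM, a log2 ratio of 0.76 (0.52 to 1.002). Desmosome genes held 1 higher and 1 lower of 9. The lower one was Jup, plakoglobin, which links cadherins to the cytoskeleton, with 208 CPM with the ErbB2 inhibitor and 724 CPM with DMSO, a log2 ratio of -1.80 (-2.02 to -1.59). Jup was at -0.67 to -1.64 in the 4 other types. Dsc1, a desmosomal cadherin of upper epidermis, was the higher one at 0.81 (0.38 to 1.25). With thinned cells Cldn4 was at 0.44 and no longer past 1.5-fold.

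Of the 18 ERK feedback and target genes, 5 were measured with a median of -0.06, 0 higher and 2 lower. Ccnd1 had 78.9 CPM with the ErbB2 inhibitor and 131 CPM with DMSO, a log2 ratio of -0.72 (-1.12 to -0.35), and was at -0.68 to -0.99 in the other types. Spry2, a feedback inhibitor of receptor tyrosine kinase signalling, had 9 and 38 UMIs, a log2 ratio of -1.42 (-2.73 to -0.42). Ier3 at -0.06 and Myc at 0.05 were not called. Immediate-early genes held 2 higher and 1 lower of 11, median 0.05, and ErbB receptors and ligands 0 of 4, median -0.12. Basal adhesion genes held 0 higher and 7 lower of 11, and cell cycle genes 0 higher and 7 lower of 12. Above the level of free RNA these became 0 higher and 2 lower of 4 and 0 higher and 1 lower of 1, with Itgb4, an integrin of hemidesmosomes, at -1.39 (-2.13 to -0.76) and Pcna, a replication clamp, at -0.60 (-1.08 to -0.15), which became -0.54 in the cells whose 7 ORS markers outnumbered those of each non-keratinocyte type. Chemokines and cytokines held 3 lower of 8, of which Ccl2 at -1.46 had 66 of its 105 DMSO UMIs in 5 cells.

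The genes furthest down belonged to the inner root sheath. Krt25, a keratin of that layer, had 1 UMI with the ErbB2 inhibitor and 1761 with DMSO, a log2 ratio of -9.35, and Tchh, trichohyalin, had 2 and 1353, a log2 ratio of -8.34. Without the 22 DMSO ORS cells led by inner root sheath markers they were at -7.00 and -5.64, and in the 4 other types Krt25 was at -5.78 to -7.47. Wfdc2 had 2 UMIs with the inhibitor and 173 with DMSO, a log2 ratio of -5.38, with its DMSO UMIs in 11 of 470 cells. Sprr4, a small proline-rich protein of the cornified envelope, likewise had 4 UMIs with the inhibitor and 110 with DMSO, where they lay in 11 cells. Leaving out the 3% of cells with most UMIs of a gene takes 15 DMSO cells, and so every DMSO UMI of Wfdc2 and Sprr4. No ratio could be measured for them in that way.

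With the FGFR inhibitor, ORS cells had more RNA of immediate-early genes, above all Fos, of Cst6, Klk10 and Defb1 and of some retinoid genes, and again less Jup. Against DMSO, 248 of 5836 genes were called higher (4.25%) and 275 lower (4.71%), with a median of 0.02 over all genes. Of all genes tested, 224 (3.84%) were higher and 108 (1.85%) lower above the level of free RNA. Of the 15 immediate-early genes, 12 were measured with a median of 0.67, 6 higher and 0 lower. Above the level of free RNA these became 4 higher and 0 lower of 8, with a median of 0.67.

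Fos, a subunit of the transcription factor AP-1, was measured at 448 CPM with the FGFR inhibitor and 30.2 CPM with DMSO, a log2 ratio of 3.85 (3.45 to 4.36). It had UMIs in 69 of 157 FGFR inhibitor cells and 30 of 470 DMSO cells. In the sebaceous gland, hair germ, basal and suprabasal epidermis its ratio was 1.43, 3.08, 2.42 and 2.14, while in ORS cells with the ErbB2 inhibitor it was -0.94 at the level of free RNA. Jun, its partner, was measured at 396 and 203 CPM, a log2 ratio of 0.96 (0.74 to 1.18), and Egr1 at 27.5 and 12.9 CPM, a log2 ratio of 1.05 (0.20 to 2.01). Fosb, with 53 and 9 UMIs, and Dusp1, a phosphatase of MAP kinases, at 2.13 (1.74 to 2.59), were called but at the level of free RNA. Heat shock genes held 1 higher of 9, Hsph1 at 1.11 (0.08 to 2.34), with a median of 0.19.

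Upper follicle and duct genes held 2 higher and 0 lower of 7 measured, with a median of 0.53. Cst6 had 13310.1 CPM with the FGFR inhibitor and 8595 with DMSO, a log2 ratio of 0.63 (0.60 to 0.67), against -0.54 in the sebaceous gland, -0.90 in hair germ, -0.82 in basal and 1.01 in suprabasal epidermis. Without DMSO cells led by inner root sheath markers Cst6 was at 0.58, just short of a call. Klk10 had 281 and 151 CPM, a log2 ratio of 0.90 (0.64 to 1.16), with 167 of 266 and 89 of 234 UMIs in 5 cells. Krt79 at 0.41, Krt17 at 0.53 and Gata6 at 0.53 were above 0 and not called. Antimicrobial and antiprotease genes held 3 higher and 4 lower of 10, and above the level of free RNA 3 higher and 0 lower of 4, with Defb1, a beta-defensin, at 0.89 (0.54 to 1.24). Cst6 is on this list and on that of the upper follicle and duct, and its call counts in each.

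Retinoid and xenobiotic genes held 3 higher and 1 lower of 14, with a median of 0.29. Crabp2 had 343 CPM with the FGFR inhibitor and 208 CPM with DMSO, a log2 ratio of 0.72 (0.49 to 0.95), Cyp2b10, a cytochrome P450 of xenobiotic metabolism, was at 0.90 (0.61 to 1.21) and Rarg at 0.81 (0.37 to 1.27). Stra6, at 0.29 (-0.03 to 0.62), was not called. Gpx2, a glutathione peroxidase of epithelia, had 809 and 452 CPM, a log2 ratio of 0.84 (0.69 to 0.99), in 122 of 157 and 254 of 470 cells. Cldn4 at 0.99 (0.49 to 1.53), Cldn1 at 0.64 (0.38 to 0.89) and Pkp1, a desmosomal plakophilin, at 1.23 (0.63 to 1.91) were called higher. Ccl20, a chemokine for CCR6-bearing cells, was at 1.06 (0.69 to 1.45), with 115 of its 135 FGFR inhibitor UMIs in 5 cells, and Areg, an ErbB ligand, at 0.78 (0.07 to 1.53) with 35 and 33 UMIs. Past 1.5-fold no more were Cyp2b10 at 0.20 and Ccl20 at 0.43 with thinned cells, and Areg at 0.58 without the deepest cells.

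Outside the lists, Cp, the copper-binding ferroxidase, at 1.74 (1.15 to 2.45), Txnip at 1.27 (0.94 to 1.62), Nupr1, a stress-response factor, at 1.28 (0.77 to 1.85), Lmbrd2, Shf and Rsrp1 were among the furthest up. Slurp2 was called higher with 41 and 23 UMIs, 32 of the 41 in 1 cell, and stood at -0.46 without the deepest cell of each library. ERK feedback genes held 1 higher and 0 lower of 5, median -0.16, the higher one being Egr1; Spry2 was at -0.20 (-1.07 to 0.61) and Ccnd1 at -0.49 (-0.87 to -0.12), neither called. FGF receptors and ligands held 0 calls of 3. BMP targets held 0 higher and 2 lower of 3, of which Id1, a helix-loop-helix inhibitor, had 46.5 and 80.4 CPM, a log2 ratio of -0.78 (-1.32 to -0.28). Basal adhesion held 0 higher and 7 lower of 12, epidermal differentiation 0 higher and 7 lower of 12 and cell cycle 0 higher and 7 lower of 13, and above the level of free RNA 1, 0 and 0 of these lower calls were left.

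Jup had 203 CPM with the FGFR inhibitor against 724 with DMSO, a log2 ratio of -1.83 (-2.06 to -1.61), and was at -1.58 to -1.93 in the other types. Inner root sheath genes were low again, with Krt71 at -6.19 and Tchh at -6.73, and at -3.00 and -4.04 without the DMSO cells led by such markers. Both inhibitors are set against the same DMSO library, so a high or low DMSO value enters both ratios, as for Jup, Wfdc2, Sprr4 and the inner root sheath genes.

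**Figure D4:**
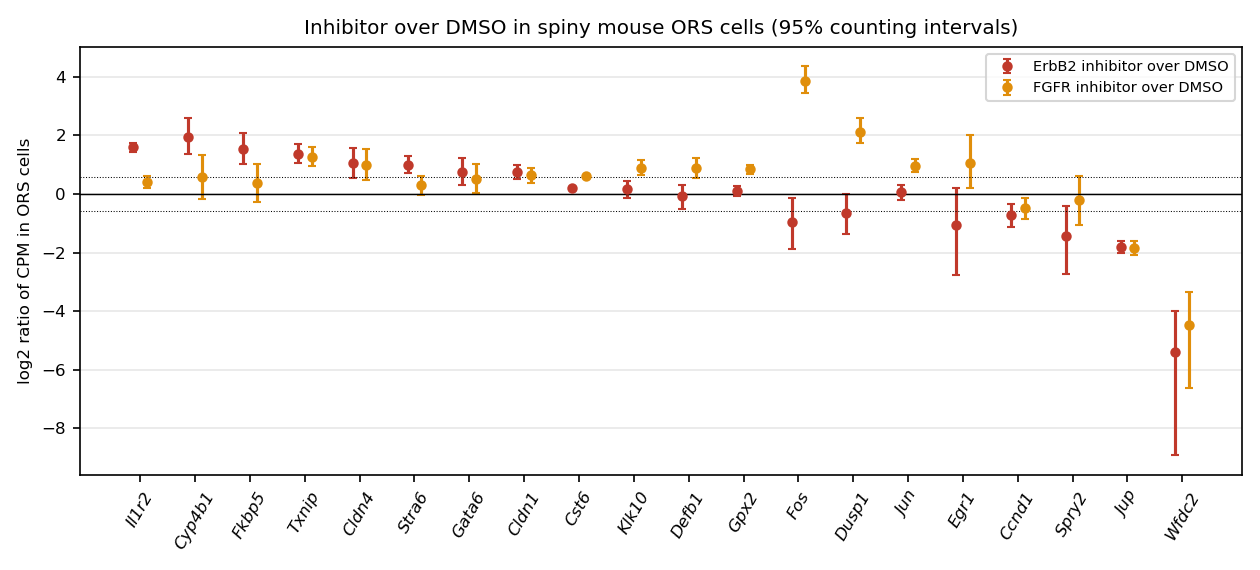
Log2 ratio of CPM in ORS cells over DMSO for 20 genes, with 95% counting intervals, ErbB2 inhibitor left of FGFR inhibitor for each gene; dotted lines mark 1.5-fold. Il1r2 is at 1.59 with the ErbB2 inhibitor and 0.41 with the FGFR inhibitor, Fos at -0.94 and 3.85, and Jup at -1.80 and -1.83.

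The 9 ORS cells of the ERK inhibitor library carried the markers: Krt79 had 850 UMIs with all 9 cells positive, and Krt17 had 369 UMIs in 7 cells. Cst6 had 2278 UMIs, of which 1938 came from 1 cell, so its level of 20395 CPM is that of 1 cell. Gata6 had 4 UMIs, Klk10 22, Stra6 14, Sox9 42 and Krt15 435. Fos had 4 UMIs, all in 1 cell, and Jup 14 in 8 cells. No ratio is drawn from these cells.

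The receptors at which the treatments aim were at low levels in ORS cells. Erbb2 had 98.2 CPM with the ErbB2 inhibitor, 109 with the FGFR inhibitor, 90.7 with DMSO, 43.1 with FGF2/Nrg1 beads and 57.5 with PBS beads, and Egfr ranged from 43.3 to 78.9 CPM. Erbb3, which binds neuregulins, had 76.3 CPM with FGF2/Nrg1 beads and 82.3 CPM with PBS beads, and 5.15 to 21.1 CPM in these spiny mouse libraries. Fgfr2 had 38 UMIs or fewer in each library, Fgfr1 24 or fewer and Fgfr3 18 or fewer, and in the 5 larger libraries Fgfr1 was always at the level of free RNA and Fgfr2 in all but the FGFR inhibitor one. Of the ERK feedback genes, Dusp6 had at most 15 UMIs, Etv5 at most 3 and Spry4 0 in each library, so a change in Etv5 or Spry4 was not detectable at this depth. Dusp6 had 15 UMIs with the ErbB2 inhibitor and 15 with DMSO, a log2 ratio of 0.55 (-0.55 to 1.72), and was not called and at the level of free RNA. Of these receptors, none with at least 30 UMIs over both libraries was called. Erbb3 was too low to be compared in the spiny mouse, with 11 UMIs with the ErbB2 inhibitor, 20 with the FGFR inhibitor and 8 with DMSO. Fgfr3 was too low in every comparison, and Fgfr2 between the bead libraries.

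With FGF2/Nrg1 beads in the mouse, ORS cells had less Krt15, Ccl27a and Plin2 and more Krt5 and Id1 than with PBS beads, and none of their 7 markers was called. Of 5576 genes, 157 were called higher (2.82%) and 191 lower (3.43%), with a median of -0.04, and 119 higher (2.13% of all tested) and 166 lower calls (2.98%) were above the level of free RNA. Gm42418 and AY036118, which overlap ribosomal RNA repeats in the mouse genome, had 5519 and 332 CPM with FGF2/Nrg1 beads against 17604 and 1295 CPM with PBS beads, log2 ratios of -1.67 and -1.96. Gm42418 was at the level of free RNA. Both genes were at -1.47 to -1.97 in the other 4 types compared, and their part in the other calls was not tested. The split depends on scaling: 45.1% of calls were higher when scaled to all UMIs, and 57.3%, 205 against 153, when scaled by the median of gene ratios. Of the 157 higher genes, 38 had more than 50% of their FGF2/Nrg1 UMIs in 5 cells. Of the 191 lower genes, 17 had more than 50% of their PBS UMIs in 5 cells. The share over all genes was not taken.

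All upper follicle and duct genes measured, 10 of 11, stayed within 1.5-fold or had intervals reaching no difference, so 0 were called, with a median of 0.21. Defb6 had 9660 CPM with FGF2/Nrg1 beads and 14083 CPM with PBS beads, a log2 ratio of -0.54 (-0.59 to -0.50), just inside 1.5-fold. Cst6 was at 0.30 (0.26 to 0.33), Krt79 at 0.22 (0.17 to 0.27), Krt17 at 0.44 (0.38 to 0.51), Gata6 at 0.12 (-0.26 to 0.50) and Plet1 at -0.38 (-0.70 to -0.06). Defb1 was at 0.01 (-0.26 to 0.27). These values do not show that the markers are the same in both libraries.

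Krt15, a keratin of follicle and basal cells, had 6131 CPM with FGF2/Nrg1 beads and 10117 CPM with PBS beads, a log2 ratio of -0.72 (-0.78 to -0.67), beside -0.71 in the sebaceous gland, -0.03 in hair germ, -0.82 in basal and -0.57 in suprabasal epidermis. Ccl27a had 363 and 848 CPM, a log2 ratio of -1.22 (-1.45 to -1.004), in 41 of 96 and 65 of 92 cells, beside -1.24, -0.05, -1.06 and -1.35 in those types. Plin2, a coat protein of lipid droplets, had 77.9 and 187 CPM, a log2 ratio of -1.25 (-1.76 to -0.79), against -0.17 to 0.05 in the other types. Hes1, a Notch target, had 212 and 325 CPM, a log2 ratio of -0.61 (-0.93 to -0.31), and Axin2, a WNT target, 34.8 and 63.1 CPM, a log2 ratio of -0.83 (-1.66 to -0.11). Fmo5, a flavin monooxygenase, had 3 and 57 UMIs, a log2 ratio of -3.38 (-6.01 to -2.07), against -0.05 to -0.65 elsewhere. Sod2, Pgk1 and Ier2 were called lower at -0.70, -0.66 and -0.62, as was Hspa5, a chaperone of the endoplasmic reticulum, at -0.63, which turned to 0.13 with thinned cells. Hes1 at -0.42 and Sod2 at -0.52 fell short of a call as a mean over cells, and Ier2 at -0.57 under scaling by the median of gene ratios.

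Krt5 had 1478 CPM with FGF2/Nrg1 beads and 857 with PBS beads, a log2 ratio of 0.79 (0.64 to 0.93), where the PBS level was that of free RNA. Id1 had 182 and 115 CPM, a log2 ratio of 0.66 (0.26 to 1.07), in 49 of 96 and 57 of 92 cells. Gja1, connexin 43, had 206 and 73.3 CPM, a log2 ratio of 1.47 (1.04 to 1.94), but 110 of 124 and 57 of 65 UMIs came from 5 cells. Krt10, at 0.99 and at 0.31 with thinned cells, and the inner root sheath genes Krt71 at 4.19, Krt25 at 3.87 and Tchh at 3.49 also rested on few cells; of 1789 Tchh UMIs with FGF2/Nrg1 beads, 1201 were in 1 cell. Without cells led by inner root sheath markers, Krt71 was at 2.23, Krt25 at 1.68 and Tchh at 2.19. Krt16, at -2.67, had 113 of its 128 PBS UMIs in 1 cell.

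Of further lists, ERK feedback genes held 0 higher and 1 lower of 5 with a median of 0.24, the lower one being Ier3, at the level of free RNA. Immediate-early genes held 0 higher and 1 lower of 11, median -0.08, and retinoid and xenobiotic genes 0 of 10, median -0.17. Desmosome genes held 0 of 10, with Jup at -0.21 (-0.43 to 0.01), and MHC class I genes 0 of 9, median -0.22. ErbB receptors and ligands held 1 higher of 5, Hbegf, an EGF-family ligand, with 18 and 12 UMIs, at -0.37 without the 3% of cells with most of them. Genes of other cells were called higher at the level of free RNA, among them Lyz2 at 4.58, Fn1 at 3.13 and Sparc at 2.31.

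**Figure D5:**
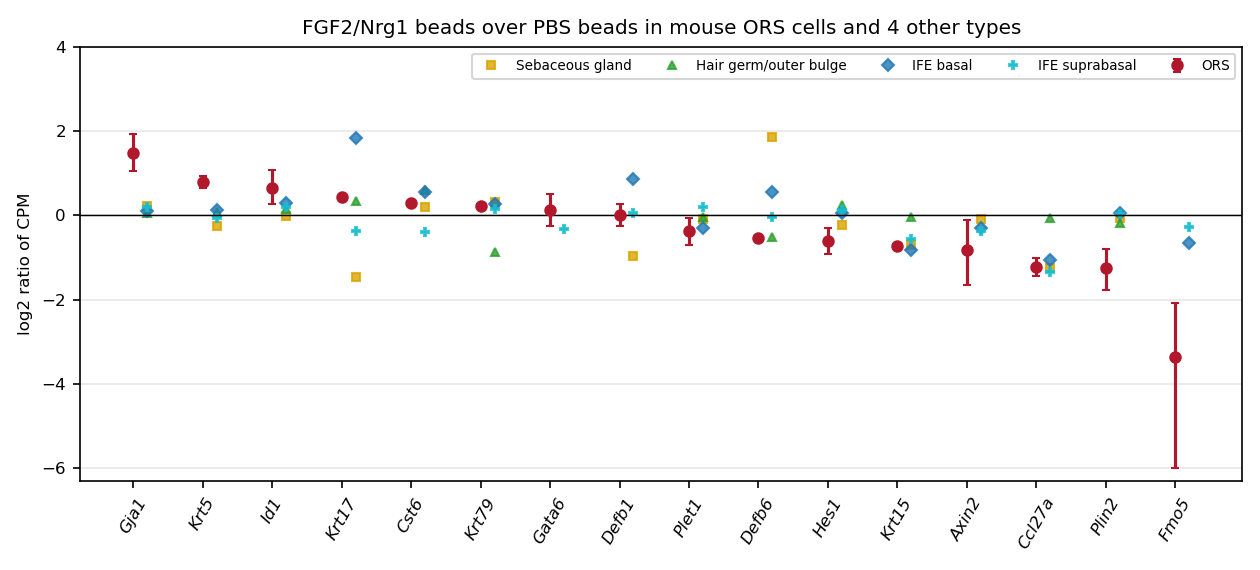
Log2 ratio of CPM, FGF2/Nrg1 beads over PBS beads, for 16 genes in mouse ORS cells with 95% counting intervals, beside the same ratio in 4 other types. Krt79, Cst6 and Gata6 lie at 0.22, 0.30 and 0.12, while Ccl27a at -1.22 has values near -1 in all but hair germ cells, and Plin2 at -1.25 and Fmo5 at -3.38 stand apart from the other types.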

How the data were processed

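The authors deposited 1 table of UMI counts of genes by cells, with a cell table that gives each cell's library, cluster and type; per the labels' protocols, cells were released with a protease of Bacillus licheniformis and a Dounce homogeniser and run on the 10x 3' v3.1 kit. Per the submitters' processing notes, Cell Ranger 6.1.1 and the mouse build GRCm38 (mm10) were used. The authors' cell table also gives the percent of each cell's UMIs from mitochondrial, haemoglobin and ribosomal genes, which no result here uses. Whether the spiny mouse reads were aligned to that build, how cells were filtered and how doublets were treated is not given in the sources used here, and no doublet caller was run. Counts were summed over ORS cells in each library with Python 3.11.15, numpy 2.4.6, pandas 2.3.3 and scipy 1.17.1. Ratios of CPM used a prior of 1 UMI scaled to depth, a minimum of 30 UMIs over both libraries and exact conditional binomial 95% intervals. These intervals were tested on simulated counts drawn from the same counting model that they assume. The simulated counts held no clumping of UMIs in few cells, so the test cannot show how the intervals fare where UMIs are clumped. With 1 library a group no p-value was computed. A type needed 15 cells to enter the free RNA rule, which was chosen after the data were seen.

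Genes were named by rule: the 7 markers, the 10 leading genes in DMSO and in PBS beads, the 10 highest and 10 lowest of each comparison by the interval bound nearest to no difference, and, of each of 29 function lists, the members with most UMIs and the called ones with the largest ratios; the text describes those with a role to state. The other leading genes and the genes that differ between ORS cells were named with their values in view. The ORS cells, markers and lists were chosen with earlier results of these data known.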

Additional observations from a re-analysis of the deposited data

How the results depend on the processing

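No paired analysis was possible because each group was 1 library, and for the same reason no replicate could be left out. Weighting to a mix of clusters could not be run, since ORS cells form 1 cluster. With at least 100 UMIs over both libraries, the ErbB2 inhibitor gave 151 higher and 134 lower calls of 3057 genes measured. The FGFR inhibitor gave 90 and 128 of 2982, and FGF2/Nrg1 beads 44 and 67 of 2069. With at least 10 UMIs, 262 were higher and 253 lower of 8830 with FGF2/Nrg1 beads. With cells thinned to 1000 UMIs, fewer UMIs are left to count, and the ErbB2 inhibitor gave 132 higher and 114 lower calls of 2824. The FGFR inhibitor gave 90 and 119 of 2640, and FGF2/Nrg1 beads 21 and 36 of 726. Of ORS shares, taking keratinocytes as the denominator moved all 5 of the larger libraries, to 2.64% with the ErbB2 inhibitor, 4.27% with the FGFR inhibitor, 4.14% with DMSO, 5.64% with FGF2/Nrg1 beads and 6.06% with PBS beads. A further 3 alternatives were chosen after the data were seen. Genes above the level of free RNA gave 149 lower calls with the ErbB2 inhibitor and 108 with the FGFR inhibitor. Without the 3% of cells with most UMIs of each gene, 806 were higher and 253 lower of 5899 with the ErbB2 inhibitor. With the FGFR inhibitor 863 were higher and 196 lower of 5836, and with FGF2/Nrg1 beads 113 and 272 of 5576. The medians over all genes became 0.165, 0.203 and -0.094, so the trim shifted the ratios as a whole. This trim takes more from a library whose UMIs of a gene lie in fewer cells. It replaced a trim of 5 cells per library that was run before it. Of called genes and of list medians past 1.5-fold, 15 values turned in sign. With the FGFR inhibitor the median of WNT targets and antagonists was 0.25 at 100 UMIs and 0.53 with thinned cells, that of interferon response genes -0.0292 and -0.00693, that of cell cycle genes 0.0732 with thinned cells, and Slurp2 -0.46 without the deepest cells. With FGF2/Nrg1 beads, Scd2 was at -0.013 and Fabp4 at -0.17 as a mean over cells. With thinned cells Hspa5 was at 0.13 and Fabp4 at -0.42. Krt1 was at 0.14 and Mt2 at -0.0275 in the cells whose 7 ORS markers outnumber those of each non-keratinocyte type, and Mt2 at -0.0645 without cells led by inner root sheath markers. S100a9 was at 1.73 and Hbegf at -0.37 without the 3% of cells. The cause of these turns was not tested. Among the other values of single genes and list medians, 4848 stayed within the main counting interval, or for medians near the main value. A further 349 moved more. Uncalled values near 0 could change sign among these. A changed minimum of UMIs leaves the ratio of a single gene as it is, so many of the 4848 could not move. Thinning to 1000 UMIs kept 201 values and moved 131, and the trim of 3% of cells kept 412 and moved 87. The ERK inhibitor library, with 9 cells, limits what can be said of it.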

Other observations

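RNA of ORS markers was also held by cells that carry another name. In cluster 35, annotated suprabasal epidermis, 67 of 176 cells with the ErbB2 inhibitor, 28 of 107 with the FGFR inhibitor and 56 of 129 with DMSO reached the median ORS share of the 7 markers. There it was Cst6 that carried the share, at 11751, 10476 and 9989 CPM, while Krt79 stood at 68.0, 51.6 and 91.3 CPM and Gata6 at 0.850 CPM or less. Flg, filaggrin of the granular layer, was at 14974 CPM in that cluster in DMSO. Cst6 alone thus did not separate ORS cells from cells high in filaggrin.

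In cluster 31, annotated basal epidermis, 15 of 159 cells with the ErbB2 inhibitor, 9 of 89 with the FGFR inhibitor and 48 of 277 with DMSO reached that share. Krt17 was at 2595, 3902 and 3896 CPM there and Gata6 at 96.9, 70.5 and 56.0 CPM, against 83.7, 70.8 and 48.9 CPM in ORS cells of the same libraries. Krt79 was at 261, 141 and 352 CPM, and Krt5 at 9908, 12128 and 12093 CPM. Gata6 was thus as high in these cells as in ORS cells, with little Krt79; the difference was not tested.

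The cells annotated inner root sheath held 6522 CPM of Krt79 with the ErbB2 inhibitor (22 cells) and 6158 CPM with the FGFR inhibitor (19 cells), against 1109 CPM with DMSO (91 cells). In the mouse they held 126 CPM with FGF2/Nrg1 beads (211 cells) and 301 CPM with PBS beads (86 cells).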
